A study of Mus musculus with 2 samples.

Results

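The GC-rich p300 peaks are the peaks of the deposited list whose mm9 sequence is at least 54% G plus C, counted over the assembled bases of each peak. There were 624 such peaks among 6629, or 9.41% of the list, and the other 6005 peaks are the ones they are set against. The members covered 683 kb and lay on all 20 chromosomes that hold peaks. None of them held an unassembled base. The peaks came from 1 chromatin immunoprecipitation with an antibody to p300 on the dorsal cerebral wall, which holds the future neocortex, of embryonic day 14.5 Swiss Webster mouse embryos. Tissue was pooled to 0.15 g after the medial structures and the choroid plexus had been cut off, and it carried no transgene or drug. Input DNA from that chromatin was the only control, and it entered only through the authors' peak calling. There was 1 library of each kind and no replicate, so every p-value below compares peaks within a single list, and peaks that lie close together are not independent. The tissue holds progenitors, new neurons and other cells, so a peak cannot be assigned to a cell type, and the list gives no strength of a peak.

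p300 is a histone acetyltransferase that sequence-specific factors recruit to active enhancers and promoters, and its peaks in an embryonic tissue are used as candidate enhancers. In mammalian DNA the CpG dinucleotide is a target of methylation and has been lost from most of the genome. It is kept in CpG islands, which are short GC-rich stretches found at many promoters. GC-rich chromosomal domains also hold more genes, with shorter introns, than AT-rich ones. A peak can be GC-rich as a CpG island or as part of a GC-rich domain, and the members were measured for both.

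The sequences of 4 members show how different GC-rich peaks can be. Each is 240 bases round the midpoint of the peak on the plus strand of mm9, in lower case with every CpG in capitals. The first is the member of highest GC content and the next the member of highest CpG ratio, both among those free of annotated exons. Then come the widest member and, last, the member of lowest CpG ratio among those nearest to Gse1, the gene with the most members.
Fgfr3 peak, chr5:34037994-34038233: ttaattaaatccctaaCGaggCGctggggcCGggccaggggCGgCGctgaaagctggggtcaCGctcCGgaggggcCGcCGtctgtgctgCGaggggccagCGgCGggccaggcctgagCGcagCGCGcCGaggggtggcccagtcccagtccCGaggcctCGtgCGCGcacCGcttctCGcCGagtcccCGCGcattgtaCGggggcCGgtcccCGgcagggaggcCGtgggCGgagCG
Zfhx3 peak, chr8:111227442-111227681: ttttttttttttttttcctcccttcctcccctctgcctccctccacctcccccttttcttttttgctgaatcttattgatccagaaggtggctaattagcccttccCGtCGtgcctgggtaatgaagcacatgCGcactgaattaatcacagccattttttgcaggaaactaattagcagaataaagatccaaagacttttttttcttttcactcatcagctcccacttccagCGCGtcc
Sox4 peak, chr13:29050681-29050920: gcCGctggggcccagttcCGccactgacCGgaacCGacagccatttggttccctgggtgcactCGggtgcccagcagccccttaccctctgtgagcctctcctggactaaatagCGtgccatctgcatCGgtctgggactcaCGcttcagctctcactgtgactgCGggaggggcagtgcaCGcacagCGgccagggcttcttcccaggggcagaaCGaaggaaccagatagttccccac
Gse1 peak, chr8:122949091-122949330: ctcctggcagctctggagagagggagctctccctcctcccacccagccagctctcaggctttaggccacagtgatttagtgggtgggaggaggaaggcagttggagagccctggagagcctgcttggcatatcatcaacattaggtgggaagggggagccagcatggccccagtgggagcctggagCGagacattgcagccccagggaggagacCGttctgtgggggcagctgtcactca
The stretch near Fgfr3, a fibroblast growth factor receptor, was 75% GC with 31 CpG. The one near Gse1 was also GC-rich, at 61.7%, but held only 2 CpG. The stretch near Zfhx3, a zinc finger and homeodomain factor, was 43.8% GC with 5 CpG, below its whole peak at 55.7%, so the GC-rich bases of that peak lay to the sides of its midpoint. The stretch from the widest member, near Sox4, a transcription factor of new neurons, held 12 CpG at 63.3% GC.

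GC content among the members ran from 54.02% to 74.7%, with a median of 56.2% (95% interval from order statistics 56.1% to 56.5%), against a median of 44.4% for the other peaks. Most members lay close to the limit, with 280 between 54% and 56%, 290 between 56% and 60% and 54 at 60% or more. Just inside the limit were peaks nearest to Golga7b, Lingo1, Commd7 and Gm7935, each at 54.02%. Just outside were peaks nearest to Gm8618 and Msi2 at 53.97% and to Ssbp3 and Pnma1 at 53.98%. The limit thus cuts a continuous distribution and separates no distinct class.

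The members were raised above their surroundings, and the surroundings were GC-rich as well. The 10 kb on each side of a member had a median GC content of 50.6% (interval 50.4% to 50.8%), against 43.0% (42.9% to 43.2%) beside the other peaks. With 50 kb on each side the medians were 49.99% and 42.8%. A member exceeded its own 10 kb flanks by a median of 5.96 percentage points and another peak by 1.17. Flanks of 50% or more were found for 356 members (57.1%) and flanks of 54% or more, at which the neighbourhood alone would meet the limit, for 75 (12.0%). At the other end, 58 members had flanks below 46%. These values follow in part from the rule, since peak and flank share a chromosomal domain, and they were not tested.

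**Figure D1:**
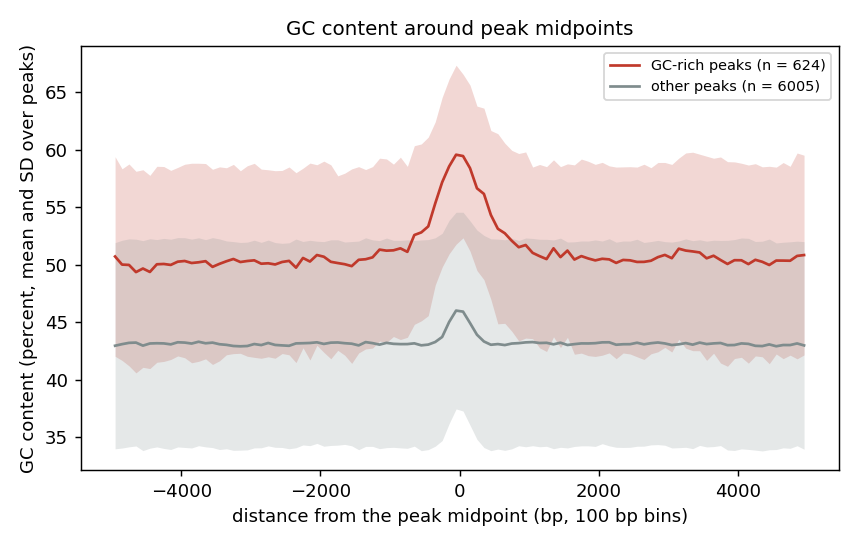
Mean GC content in bins of 100 bp by distance from the peak midpoint, for the 624 GC-rich peaks (red) and the 6005 other peaks (grey), with bands of 1 SD over peaks. The GC-rich peaks reach a mean of 59.6% beside the midpoint and stand at 50.8% and 50.5% at 2050 bp on the left and the right, while the other peaks reach 46%.

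Over the whole peak, most members had a CpG ratio below the usual level for a CpG island. The CpG ratio is the number of CpG observed over the number expected from the C and the G of the same peak, so it corrects for the GC content that chose the members. Its median was 0.262 (interval 0.247 to 0.279) in members and 0.225 (0.221 to 0.228) in other peaks. Below 0.3 were 371 members (59.5%) and a larger share of other peaks, 75.4%. A ratio of 0.6 or more, the usual level for a CpG island, was found in 57 members, 9.13% (exact interval 6.99% to 11.7%), against 1.54% of all peaks and 45 of the other peaks (0.749%). The difference of 8.39 percentage points (6.35 to 10.9) passed Fisher's exact test (two-sided, Benjamini-Hochberg adjusted over 6 comparisons, p = 3.16e-32). CpG counts had a median of 21 per member and 11 per other peak, or 2.06 and 1.08 per 100 bp. With the ratio taken over the middle 500 bp, the difference in the share at 0.6 or more was 11.2 percentage points. Shorter CpG islands inside a peak were not searched for.

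CpG-rich members were concentrated in the upper range of GC content. A ratio of 0.6 or more was reached by 6 of the 280 members between 54% and 56% GC (2.14%), by 23 of the 290 between 56% and 60% (7.93%) and by 28 of the 54 at 60% or more (51.9%, exact interval 37.8% to 65.7%). The median ratio in those classes was 0.245, 0.255 and 0.608. Members of 60% GC or more thus lay above and below a ratio of 0.6 in about equal numbers. Nearly all members of lower GC content were below that ratio.

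**Figure D2:**
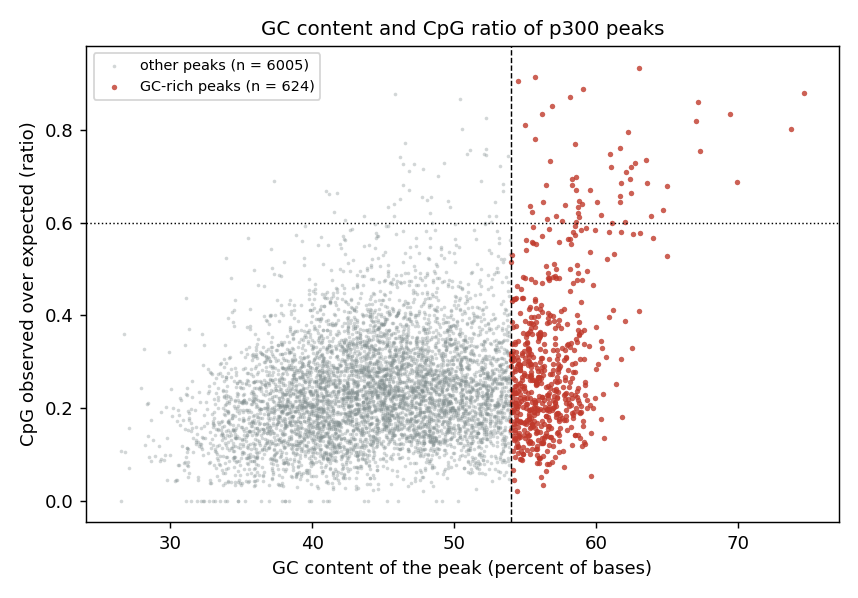
GC content in percent (x axis) and CpG observed over expected (y axis) of each peak, with GC-rich peaks in red and other peaks in grey, the limit of 54% dashed and the ratio of 0.6 dotted. Of the 624 GC-rich peaks 57 lie above the dotted line, and 28 of these are at 60% GC or more.

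The 57 CpG-rich members differed from the other 567 members in more than CpG, as a description without a test because the division was made after the values were seen. Their median GC content was 59.6% against 56.1%, yet their 10 kb flanks were less GC-rich, at 48.8% against 50.8%. Their midpoint lay in a coding gene in 9 cases (15.8%) against 287 of 567 (50.6%). The 287 include 28 members that lie in no coding gene but the long model Gm20388, described below, while none of the 9 depends on it. It lay within 5 kb of a transcript start in 15 cases (26.3%) against 107 (18.9%). The other 42 of the 57 were 5 kb or more from any annotated transcript start, in a list from which the authors had removed peaks within 2.5 kb of knownGene starts. Their median width was 1084 bp, against 997 bp.

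The member of highest GC content, at 74.7% with 113 CpG and a ratio of 0.879, lay at chr8:93431789-93432713 over an exon of the gene model Gm6658, with Chd9, a chromodomain helicase, as its other flanking gene. Next came a member 266 bp upstream of the start of Rassf8, at 73.7% with a ratio of 0.802. The member with the highest ratio, 0.935, lay 47 bp from the start of Zfyve9, an endosomal adaptor of TGF-beta receptor signalling, at 63.0% GC. All 3 lay over or beside an annotated coding start. A member near Fgfr3 (69.9%, ratio 0.688), in contrast, was 26.3 kb from that start, and a member near Cdkn1c, which encodes a cyclin-dependent kinase inhibitor, was 22.9 kb away at 69.5% with a ratio of 0.833. The gene models Gm5908 and Gm17623 were nearest to the members that follow by GC content (67.4% and 67.2%), at 406.9 kb and 50.1 kb.

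Of the remaining members with a high CpG ratio, the peak near Zfhx3 had 0.915 at 55.7% GC and lay 10.98 kb from that start. The peak near Mkl2, a coactivator of serum response factor, had 0.905 at 54.5% GC, 180.8 kb away. The peak near Chd2, another chromodomain helicase, had 0.888 at 59.1% GC, 16.8 kb away, with flanks of only 38.8%. The peak near Gm10775 had 0.870 at 58.2% GC, 18.4 kb away. All 4 lay outside coding genes.

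Several CpG-rich members were nearest to regulators of cortical progenitors and new neurons, and these are named here after their values were seen. Among the 57, 11 (19.3%) had a nearest coding gene on one of the lists described below, against 71 of the other 567 members (12.5%) and 9.43% of all peaks. They were nearest to the Notch pathway genes Dll4 (60.1% GC, ratio 0.644) and Notch3 (62.1%, 0.709), and to Neurog1 (56.2%, 0.835) and Neurod2 (61.7%, 0.644), which encode neurogenic basic helix-loop-helix factors. Id1, an inhibitor of such factors, had 63.9% and 0.614, and the anti-proliferative gene Btg2 59.0% and 0.640. The Wnt ligand genes Wnt7b (65.0%, 0.678) and Wnt11 (59.6%, 0.67), the co-repressor gene Bcor (61.0%, 0.748), Pou3f3 of upper-layer neurons (55.3%, 0.635) and Fgfr3 made up the rest.

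Members lay closer to genes than other peaks did. Their midpoints had a median distance of 31.5 kb (interval 28.8 to 34.6 kb) to the nearest coding start site, against 91.7 kb (87.9 to 95.6 kb) for other peaks. Over 50 kb from any coding start site were 206 members (33.0%, exact interval 29.3% to 36.9%), against 63.7% of all peaks and 66.9% of the other peaks. The difference of -33.9 percentage points (-37.7 to -29.9) passed Fisher's exact test (adjusted p = 1.44e-59). Most members, 375 (60.1%), were 5 to 50 kb from a coding start, where 30.9% of other peaks lay. Beyond 500 kb there was 1 member (0.160%), against 467 other peaks (7.78%).

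Close to transcript starts the members were also more frequent. A midpoint less than 5 kb from the start of any annotated transcript was found for 122 members (19.6%, exact interval 16.5% to 22.9%), against 10.3% of all peaks and 9.29% of other peaks, a difference of 10.3 percentage points (7.24 to 13.6; Fisher's exact test, adjusted p = 3.19e-13). The nearest transcript belonged to a coding gene in 84 of the 122 (68.9%) and to a processed transcript in 16 (13.1%). It belonged to a lincRNA in 11 (9.02%) and to a microRNA in 8 (6.56%). Among the 558 other peaks under 5 kb from a start these shares were 54.1%, 11.8%, 4.48% and 5.91%. The authors had removed peaks within 2.5 kb of a start site of another annotation. By GENCODE 57 members (9.13%) and 3.80% of other peaks lay that close, and 27 members (4.33%) and 1.93% of other peaks overlapped an exon, and the part of the differing annotations in the near-start difference was not tested. Members lay upstream of their nearest coding start in 41.2% of cases and other peaks in 42.6%.

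Between peaks with flanks of like GC content the distance to coding starts differed less. Among peaks whose 10 kb flanks were between 48% and 50% GC, 40.1% of 137 members and 44.7% of 479 other peaks were over 50 kb from a coding start, a difference of -4.53 percentage points (-13.6 to 4.92; Fisher's exact test adjusted over 30 comparisons in 5 bands of flank GC, p = 0.518). By the same exact test, the shares between 50% and 52% were 31.5% and 46.1% (adjusted p = 0.0140), between 46% and 48% they were 34.2% and 51.97% (0.0140), between 44% and 46% they were 61.5% and 58.3% (0.795), and between 52% and 54% they were 27.7% and 25.9% (0.873). Members were thus less often far from a coding start in 2 of the 5 bands. The share under 5 kb from a transcript start differed in 1 of the 5, at 50% to 52% (22.2% against 11.2%, exact test, adjusted p = 0.0140), and the share with a neighbouring peak in none, with adjusted p from 0.0893 to 0.679. The CpG ratio differed in 3 of the 5, among them 48% to 50%, where 12.4% of members and 0.835% of other peaks reached 0.6 (exact test, adjusted p = 2.74e-07).

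**Figure D3:**
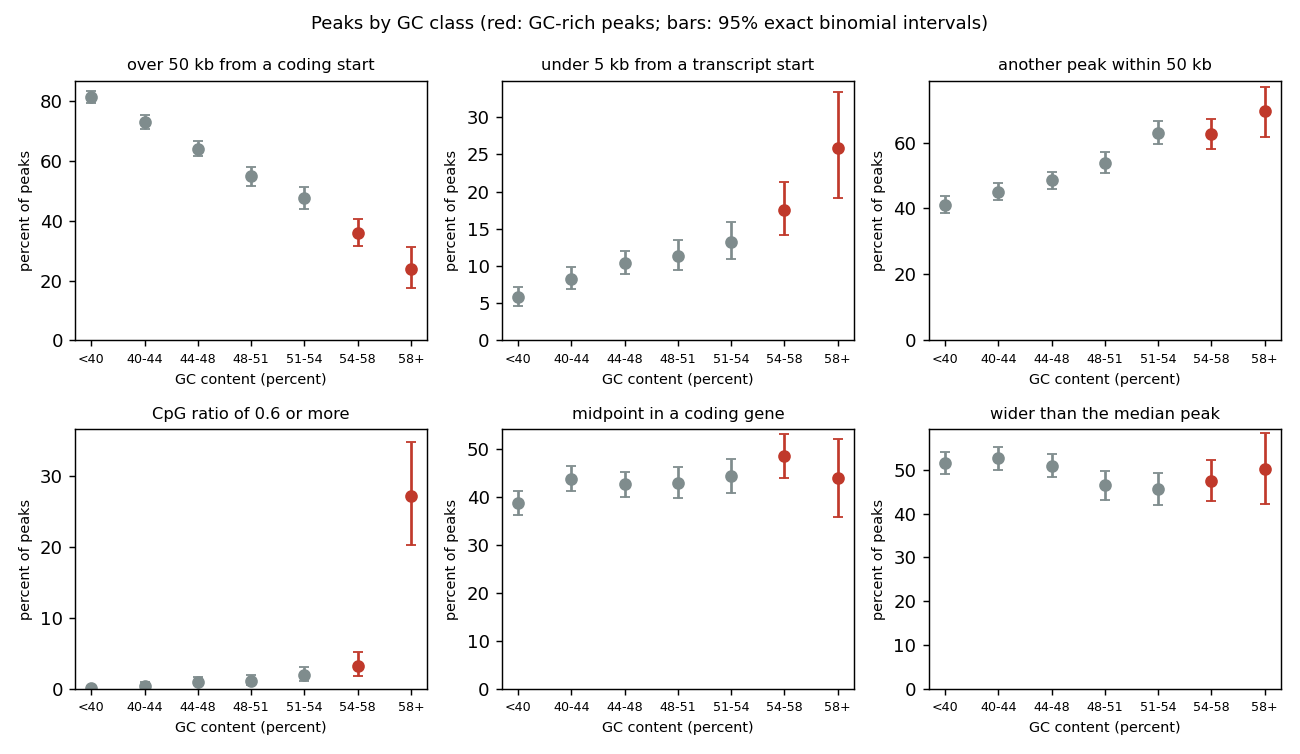
Percent of peaks (y axes) with each of 6 features in 7 classes of GC content (x axes), with 95% exact binomial intervals and the GC-rich classes in red. The share over 50 kb from a coding start falls from 81.5% below 40% GC to 23.9% at 58% or more, the share with a CpG ratio of 0.6 or more stays at 3.20% or less up to 58% and then reaches 27.1%, and the share wider than the median peak lies between 45.6% and 52.7%.

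The position inside genes depended on 1 gene model. A midpoint in a coding gene was found for 296 members (47.4%, exact interval 43.5% to 51.4%), against 42.7% of all peaks and 42.2% of other peaks, a difference of 5.22 percentage points (1.13 to 9.34; Fisher's exact test, adjusted p = 0.0163). Gm20388, a model of 4.43 Mb on chromosome 8 that runs across many other genes, held 38 members and 11 other peaks, and 28 of those members were in no other coding gene. Without it, 42.9% of members and 42.1% of other peaks were in a coding gene, a difference of 0.834 (-3.20 to 4.94; exact test, adjusted p = 0.702). Introns then held 260 members, exons of coding genes 8, non-coding genes 17, and 339 members (54.3%) were intergenic. Within bands of flank GC the difference was negative in 4 of the 5, and in all 5 without Gm20388, and it passed the test in 2. From 48% to 50%, 32.1% of members and 48.2% of other peaks were in a coding gene (exact test, adjusted p = 0.00625), and from 46% to 48%, 26.03% and 45.99% (0.00625).

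The genes that held members were shorter than those that held other peaks. The host gene of a peak is the shortest coding gene round its midpoint, and host length was not compared within bands of flank GC. Without Gm20388, the median length of the host gene was 86.5 kb (interval 70.8 to 98.9 kb) for members and 238.8 kb (227.5 to 262.3 kb) for other peaks, and 151 of 268 members (56.3%) against 19.7% of other peaks were in a gene shorter than 100 kb. Members were spread over 194 host genes. Macrod1, a mono-ADP-ribosylhydrolase gene, held 7, and Igsf21, Gse1 and Slit1 held 5 each.

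Members and other peaks had similar widths. The median width was 1007 bp (interval 978 to 1030 bp) in members and 1019 bp (1011 to 1026 bp) in other peaks, and members ran from 425 to 2920 bp. Wider than the median of all peaks, 1017 bp, were 301 members (48.2%), against 50% of all peaks and 50.2% of other peaks, a difference of -1.92 percentage points (-6.02 to 2.20; Fisher's exact test, adjusted p = 0.377). Peaks chosen by the GC content of their middle 500 bp or central 1000 bp in place of the whole peak were wider than that median more often than the rest, by 4.27 points (exact test, adjusted p = 0.0140) and 8.16 points (7.68e-05), so the direction turned with the window. The widest member, at 2920 bp and 55.5% GC with 125 CpG, lay 5.22 kb upstream of Sox4 at chr13:29049341-29052260. The next were 2651 bp in an intron of Coro1c, an actin-binding coronin gene, 2469 bp in an intron of Rbfox3, which encodes the neuronal marker NeuN, and 2449 bp near Shq1, a gene of small nucleolar ribonucleoprotein assembly. After the members at Zfyve9, Gm6658 and Rassf8, the one nearest to a coding start lay 654 bp from the start of Gm11570, beside a keratin-associated protein gene, with 59.1% GC and a ratio of only 0.172.

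Members had close neighbours more often. Another peak lay within 50 kb of 402 members (64.4%, exact interval 60.5% to 68.2%), against 50.1% of all peaks and 48.6% of other peaks, a difference of 15.8 percentage points (11.8 to 19.7; Fisher's exact test, adjusted p = 9.91e-14). The trait was not particular to members, since 63.0% of peaks between 51% and 54% GC had such a neighbour. Between 54% and 58% the share was 62.7%, and at 58% or more 69.7%. Within the bands of flank GC the difference ran from -13.3 to 3.70 percentage points and passed the test in none. The nearest peak was itself a member for 270 members (43.3%) and a member for 6.19% of other peaks. Members less than 50 kb from one another formed 452 runs, of which 364 held a single member and 26 held 3 or more, with 136 members (21.8%) in those 26.

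The longest run lay on chromosome 8, from 122758231 to 123082767, where 27 of 28 peaks within 324.5 kb were members. The coding starts nearest to these members were those of Fam92b, Gse1 and Gins2. The stretch of the run as a whole was 54.2% GC and its remaining peak 52.96%. Other runs lay at Pabpn1l, Cbfa2t3 and Acsf3 with 7 of 7 peaks, Tcf20 with 6 of 8, Flrt1 and Otub1 with 6 of 6, and Foxo6 with 6 of 9. In these runs the whole stretch was between 52.9% and 54.8% GC, close to the limit itself. The run at Slit1, 5 of 6 peaks, and the run at Cdkn1c, 4 of 4, lay in stretches of 49.3% and 49.7%, below the limit.

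The share of peaks that were members differed between chromosomes. It was highest on chromosome 11 (66 of 388, 17.0%; Fisher's exact test against all other chromosomes, adjusted over 20, p = 9.83e-06) and chromosome 4 (82 of 512, 16.0%; 7.99e-06), and lowest on chromosome 3 (8 of 362, 2.21%; 5.77e-07) and chromosome 10 (8 of 266, 3.01%; 0.000297). In all, 5 chromosomes were higher and 8 lower than the rest by this test. The share of chromosome 8 (59 of 385, 15.3%; 0.000557) rested on the run at Gse1, without which it was 32 of 357 (8.96%; exact test, adjusted p = 1.00). With only the first peak of each 500 kb, 3 of the 20 chromosomes passed, namely 3, 4 and 14. Chromosomes 11 and 10 then did not (exact test, adjusted p = 0.0666 and 0.0574).

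**Figure D4:**
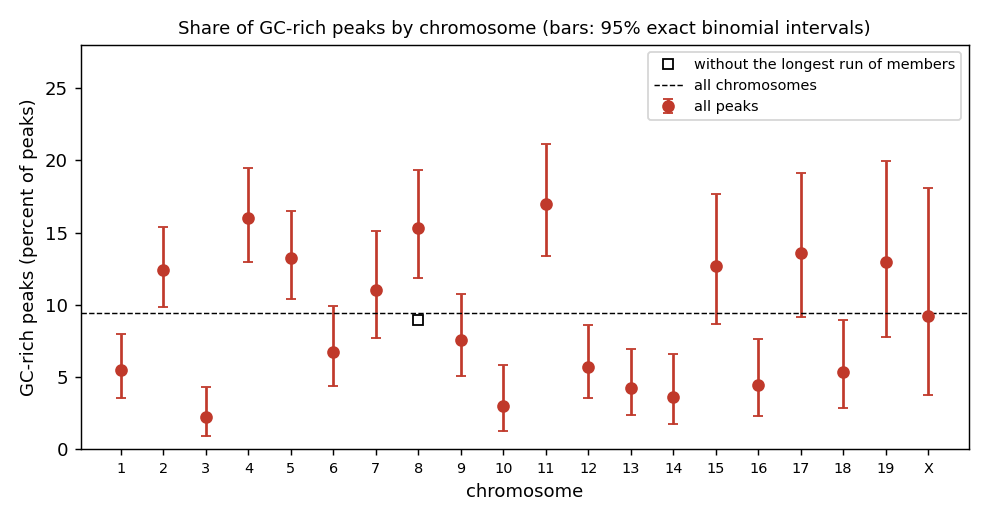
Percent of the peaks of each chromosome that are GC-rich (y axis), with 95% exact binomial intervals, the share over all chromosomes dashed and the value for chromosome 8 without the run at Gse1 as an open square. Chromosomes 11 and 4 stand highest at 17.0% and 16.0%, chromosome 3 lowest at 2.21%.

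The members had 453 nearest coding genes, of which 357 were nearest to a single member, 96 to 2 or more and 34 to 3 or more, and the 15 genes with the most members had 86. The first in this order was Gse1, which encodes a coiled-coil protein found with the CoREST co-repressor complex. It was nearest to 15 members of 16 peaks, and 12 of the 15 lay upstream of its start. Their GC content ran from 55.01% to 60.8% and their CpG ratio from 0.118 to 0.522, all below the level of a CpG island. The gene on the other side, Fam92b, which encodes a membrane-binding protein, had 11 of 12, with ratios from 0.152 to 0.383. Bcor, the gene of a BCL6 co-repressor, had 3 of 5, with ratios from 0.218 to 0.748. These loci are gatherings of GC-rich but mostly CpG-poor peaks.

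Transcription factor and chromatin genes were nearest to further members. Foxo6, a forkhead factor gene, had 6 of 10 peaks, from 54.4% to 63.1% GC and with ratios down to 0.0534. Foxp4, another forkhead gene, had 4 of 6, and Tcf20, a gene of a transcriptional coregulator, 6 of 8. Neurod2 had 3 of 6, at 61.7%, 58.6% and 60.4% GC with ratios of 0.644, 0.199 and 0.33, at 34.8, 12.2 and 4.4 kb from its start. The 3 peaks thus had similar GC content and CpG ratios on both sides of 0.6.

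Genes of signalling and the cell cycle came next. Wnt7b, a Wnt ligand gene of the cortex, had 4 members of 4 peaks, all upstream at 28.9 to 71.4 kb, of which the one at 44.3 kb had a ratio of 0.678 and the others between 0.135 and 0.284. Cdkn1c had 4 of 6, with ratios of 0.0716, 0.283, 0.833 and 0.769. Slit1, which encodes a secreted repellent ligand of axons, had 5 of 6, all inside the gene and between 54.9% and 55.9% GC. Prex1, an activator of Rac, had 4 of 7, and the actin regulator Coro2b 3 of 4. Ptprs, a receptor tyrosine phosphatase gene of axons, had 3 of 3, at 58.5% to 62.5% GC. The gene C130026L21Rik was nearest to 5 members of 20 peaks.

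Lists of genes that fit the tissue were counted by nearest coding gene, beside the same share over all peaks. The chromatin and co-repressor list had 32 members, 5.13% (exact interval 3.53% to 7.16%), against 1.45% of all peaks, and 15 of the 32 were those at Gse1, so much of the count stands for 1 locus. Prdm16, a zinc finger regulator of radial glia, had 2 of 5 peaks. Axon guidance genes had 14 members (2.24%) against 2.47% of all peaks, and beside Slit1 the ephrin gene Efnb1 had 2 of 3. Neurogenic and intermediate progenitor genes had 11 (1.76%) against 1.19%, from 9 genes. Progenitor transcription factors had 8 (1.28%) against 1.73%. Emx1, a homeodomain factor gene of the dorsal telencephalon, was nearest to 2 members of 4 peaks, and Nfix, a nuclear factor I gene, to 2 of 2. The members nearest to Nfix were at 54.4% and 61.8% GC with ratios of 0.205 and 0.18.

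Upper-layer neuron genes had 4 members (0.641%) against 0.513% of all peaks, while deep-layer neuron genes had 0, which allows a share of up to 0.481% by 3 counts, against 0.875% of all peaks. Wnt pathway genes had 6 (0.962%) against 0.664%, of which Wnt7b had 4. FGF and TGF-beta signalling genes had 6 (0.962%) against 0.634%, with 2 of 3 peaks at the receptor gene Fgfr1 and 2 of 3 at Smad7, an inhibitor of TGF-beta signalling. Notch pathway genes had 4 (0.641%) against 0.226%, at Dll1, Dll4, Hes5 and Notch3. Of the lists taken as a contrast, ribosomal protein genes had 3 (0.481%) against 0.437%, with 2 of 10 peaks at Rps24, and Hox cluster genes 0 against 0.0151%. Outside the co-repressor list every list held at most 14 members, so these shares are close to what all peaks gave or rest on few peaks. None of the 10 peaks that the study carried into reporter assays was a member, and their GC content ran from 28.6% to 50.8%. Members were 9.41% of all peaks, so 10 peaks are too few to show a difference.

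The middle 500 bp of each peak was compared with the 500 bp that start 2 kb from the midpoint of the same peak, searched on both strands, overlaps allowed. Members had the E-box CAGCTG, a site of basic helix-loop-helix factors, in 53.4% of middles (exact interval 49.4% to 57.3%) and 28.2% of the windows away (exact McNemar test, Benjamini-Hochberg adjusted over 10 motifs, p = 1.29e-18). All peaks had it in 39.6% of middles. The E-box CAGATG stood at 59.3% and 37.5% (1.39e-14), with 57.4% over all peaks. At least 1 of these E-boxes was in the middle of 499 members (80.0%) and of 73.5% of other peaks. Both E-boxes were thus more frequent at the centre of the members than beside them, as in the other peaks, where CAGCTG stood at 38.2% and 18.8% and CAGATG at 57.2% and 33.5%.

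The base composition of the windows differed, with a mean GC content of 58.6% in the middle and 50.4% away for members and 45.2% and 43.1% for other peaks, and its part in the motif differences was not tested. Hits expected from the bases of the same windows are given beside the counts. CAGCTG had 532 hits in members' middles where 91.3 were expected (5.83 times) and 216 away where 70.8 were (3.05 times). The AT-only homeodomain site TAATTA was in 13.6% of members' middles and 7.21% of their windows away (exact test, adjusted p = 0.000585), against 31.3% of all peaks' middles. It was rare in members in absolute terms, but its 108 hits were 4.10 times the 26.4 expected, against 1.92 times in the middle of other peaks and 0.580 times in members' windows away.

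The GC box GGGCGG, a site of Sp and Klf zinc finger factors, was in 43.6% of members' middles and 14.1% away (exact test, adjusted p = 7.33e-29), against 12.1% of all peaks. Members were chosen for the GC content of the peak, so the rule itself favours a site of G and C alone in their middles. This p-value is therefore no separate evidence about the site. Its 478 hits were 1.05 times the 457.0 expected from single bases, against 0.529 times in their windows away and 0.583 times in the middle of other peaks. The site holds a CpG, and that expectation leaves out the loss of CpG, whose median ratio in members was 0.262. These values thus cannot tell whether the site is as frequent as the sequence gives. The CTCF core was in 3.37% of members' middles and 0.962% away (0.00371), with 2.19% over all peaks. The nuclear factor I site TGCCAA stood at 34.8% and 24.0% (7.00e-05; all peaks 42.3%), and the Rfx site GTTGCC at 21.0% and 13.3% (0.000714; all peaks 19.8%). GTTGCC hits were 0.808 times the expected number in members' middles.

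For the other sites no higher share at the centre of members passed the test. The Sox site AACAAAG stood at 8.97% in the middle and 10.4% away (exact test, adjusted p = 0.444), with 15.0% over all peaks. Against the number expected from base composition its 57 hits in the middle were 2.42 times and its 70 hits away 1.57 times. The AP-1 site TGANTCA was less frequent in the middle, 9.62% against 14.1% (0.0219; all peaks 14.9%), though its hits were 1.43 and 1.33 times the expected number. The nuclear factor I dimer, facing TTGGC sites 5 bases apart, was in 3 members' middles and in none of their windows away (exact test, adjusted p = 0.278), with 0.272% over all peaks. These are too few to compare. Members differed from one another as well. CAGCTG was in the middle of 10 of the 57 CpG-rich members (17.5%, exact interval 8.75% to 29.9%) and of 323 of the other 567 (57.0%, 52.8% to 61.1%), and GGGCGG in 46 (80.7%) and 226 (39.9%). CAGCTG was thus found mainly in the CpG-poor members, a description without a test.

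**Figure D5:**
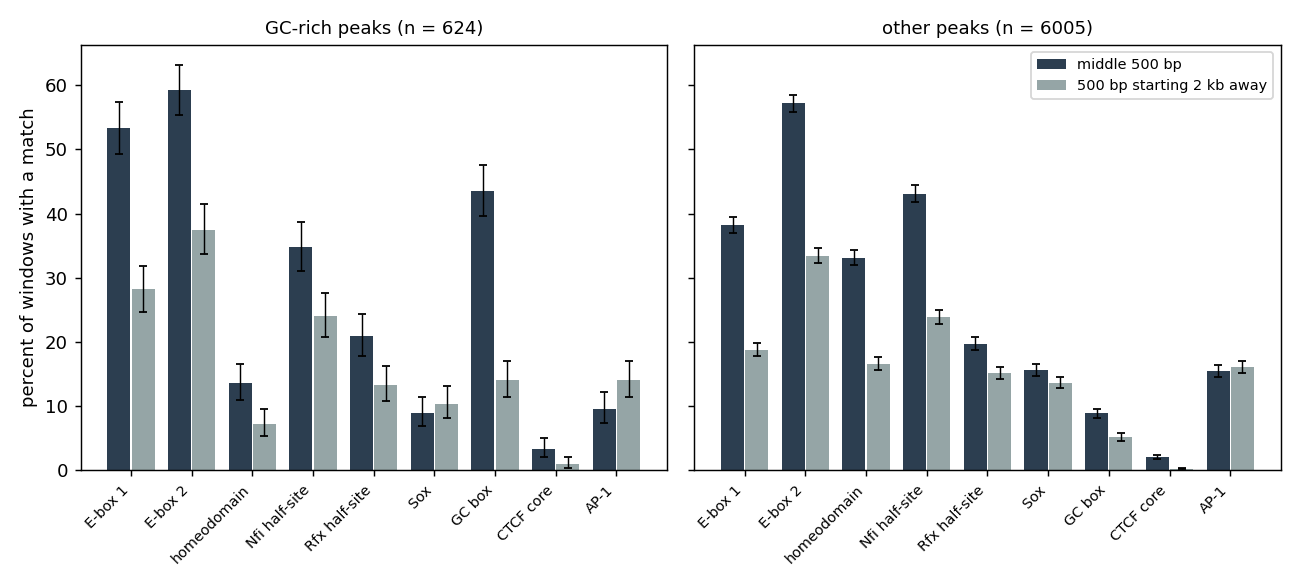
Percent of windows with at least 1 match (y axis) in the middle 500 bp (dark) and in the 500 bp starting 2 kb away (light), for 9 motifs in the 624 GC-rich peaks (left) and the 6005 other peaks (right), with 95% exact binomial intervals. E-box 1 is CAGCTG and E-box 2 CAGATG, and the GC box stands at 43.6% and 14.1% in GC-rich peaks and 8.88% and 5.16% in other peaks.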

How the data were processed

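The authors aligned reads of 36 bp to mm9 with ELAND, kept unique alignments with at most 2 mismatches, and ran MACS, given as 1.4 by the submitters, on p300 against input with a fixed shift of 100 bp. Peaks over an exon, less than 2.5 kb from a start of UCSC knownGene, or in sequence thought to map ambiguously had been taken out. The deposited list gives chromosome, start, end and number of each peak, with no score, count or signal, so the depth behind a single peak is unknown. The input library itself was not analysed here.

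Composition was read from NCBIM37, which is mm9, and positions from GENCODE vM1 (37273 genes, 22367 coding), measured from peak midpoints, with Python 3.11.15, numpy 2.4.6, scipy 1.17.1, pandas 2.3.3 and matplotlib 3.10.9. Shares were compared by two-sided Fisher's exact tests with Newcombe intervals for differences, and motifs by exact McNemar tests, each Benjamini-Hochberg adjusted with 0.05 as the threshold. Intervals of shares are 95% Clopper-Pearson (exact), those of medians come from order statistics, and all of them describe counting error alone. The tests were checked on simulated data. The members, lists and tests were chosen with earlier results of these data known. Genes were named by a rule: the 15 nearest to most members, list genes nearest to 2 or more, and those nearest to the members of highest GC content, CpG ratio and width or closest to a coding start. 1 gene that the rule names is not reported here. Sequences were printed for the first member of each ranking that overlaps no exon, so none was printed for the members closest to a start. The Gse1 sequence was added outside those rankings, as the lowest CpG ratio among the members nearest to that gene. Alternatives changed the GC limit and window, the peaks counted, the genes, the distances, the CpG level and the sequence searched.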

Additional observations from a re-analysis of the deposited data

How the results depend on the processing

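The share far from a coding start and the CpG share kept their direction and passed the test under the 14 and 13 alternatives run (-37.2 to -9.69 and 2.77 to 14.0 percentage points), but not in every narrower band of flank GC, where the far share ran from -17.7 to 3.28 and passed in 2 of 5 and the CpG share passed in 3 of 5. The gene body difference lost significance at a limit of 56% (4.32 points), with GC content over the middle 500 bp (2.73), with peaks under 5 kb apart joined (3.13), with the first peak of each 500 kb (3.82) and in the wider peaks (1.08). It did so too without Gm20388 (0.834) and without the run at Gse1 (2.85). Among peaks with 10 kb flanks of 48% to 52% GC it reversed to -11.1, and there the near-start and neighbour differences no longer passed (4.64 and 1.80). These last 3 settings were chosen after seeing the data, as was the count of chromosomes over thinned peaks. The width difference turned to 4.27 and 8.16 points, past the threshold, when GC content was taken over the middle 500 bp or the central 1000 bp. The cause was not tested.

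The median flank difference, 7.64 points, was 7.27 at a limit of 52%, 6.82 with the middle 500 bp, 8.04 in wider and 7.23 in narrower peaks, 7.21 with flanks of 50 kb and 0.925 with flanks held at 48% to 52%. The number of motifs more frequent in the middle, 7 of 10, was 4 with the first peak of each 500 kb, and chromosomes that differed fell from 13 to 3, with 200 members left. The 7 motifs include the GC box, which the choice of members by GC content favours. The part of base composition in the rest was not tested. No paired analysis was possible because there is 1 library of each kind. Depth, enrichment and replicate spread are unknown for every peak.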

Other observations

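Peaks with a CpG ratio of 0.6 or more were also found under the GC limit. There were 45, and 6 of them (13.3%) had a nearest coding gene on a list: Arid1b, a chromatin remodelling gene, Lmo4, Nfib, Nr2e1 and Sox2, which encode regulators of cortical progenitors or neurons, and Neurog2. Among the 57 CpG-rich members 2 were nearest to Foxp4, with ratios of 0.609 and 0.633, and 2 to Cdkn1c. TAATTA was in the middle of 11 of those 57 (19.3%, exact interval 10.05% to 31.9%) and of 74 of the other 567 members (13.1%, 10.4% to 16.1%), and CAGATG in 28 (49.1%) and 342 (60.3%). Short tandem repeats covered over 10% of 1 member (0.160%) and of 72 other peaks (1.20%). For 27 members no other peak of the list lay within 500 kb.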
